A study of Mus musculus with 7 samples.

Results

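Growth factor receptor tyrosine kinases were followed in HopX-positive cells sorted from mouse brain by fluorescence-activated cell sorting. The 10 genes, Ntrk2, Fgfr1, Fgfr2, Fgfr3, Egfr, Erbb2, Erbb4, Axl, Igf1r and Pdgfra, were taken by symbol from the 24978 rows of a table of RNA-seq values. Each had a single row of its own. The 7 libraries came from C57BL/6 mice at 3 stages. There were 2 libraries of embryonic day 15 (E15), 2 of the third day after birth (P3), numbered 1 and 3, and 3 of adult brain. The labels call the sorted cells neural progenitor cells and name no mutation or treatment. The age of the adult mice, the brain region and the way HopX was detected were not stated in these sources, so a difference in region and a difference in stage cannot be told apart. Nothing in the labels says that libraries came from separate animals, and p-values therefore speak of the scatter among these libraries alone, which could be technical.

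Receptor tyrosine kinases are membrane proteins that bind a growth factor outside the cell, pair up and phosphorylate each other inside it, which recruits adaptors and starts the Ras-MAP kinase and PI3 kinase-Akt cascades. In the developing brain, FGF receptors act in radial glia and in astrocyte formation, and EGF receptor marks activated neural stem cells and late progenitors. TrkB, the product of Ntrk2, binds brain-derived neurotrophic factor and is made in neurons as a full-length kinase and in astrocytes mainly as a truncated form without the kinase domain. PDGF receptor alpha is a defining marker of oligodendrocyte progenitors.

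Values were TPM, a transcript abundance scaled for gene length and library total, so levels of different genes can be compared within a library. The read depth of each library cannot be read from TPM and is unknown. All 10 radial glia markers reached a mean of 1 TPM at every stage, but 6 of them fell and 3 rose in the adult against E15 (limma, same test as below). Their sum was 5493 to 6408 TPM in E15 cells, 16160 to 24840 TPM in P3 cells and 6804 to 7419 TPM in adult cells, most of it Fabp7 and Slc1a3, and Slc1a3 is also among the astrocyte markers. Pax6 had a mean of 75.0 TPM in adult cells against 229 TPM in E15 cells, and Nes 1.05 TPM against 20.1 TPM. Sox2 and Prom1 went the other way, with means of 69.6 and 177 TPM in adult cells against 27.1 and 68.7 TPM in E15 cells. The summed level of 10 astrocyte markers was 916 to 1113 TPM in E15 cells, 4439 to 6767 TPM in P3 cells and 16230 to 18320 TPM in the adult. The 12 microglia markers summed to 6.90 to 7.14 TPM in E15 cells, 76.8 to 108 TPM in P3 cells and 412 to 564 TPM in the adult, with C1qc and Tyrobp at 0 in both E15 libraries. Neuron markers summed to 1230 and 1487 TPM in E15 cells, 205 and 736 TPM in P3 cells replicates 1 and 3, and 192 to 345 TPM in the adult. Not all of them fell. Of 9 tested, 7 were lower and 1 higher in the adult against E15, and 1 lower and 2 higher against P3. Snap25 was at 28.3 and 30.3 TPM in E15 cells, 15.3 and 28.8 TPM in P3 cells, and 140.4, 34.5 and 126.5 TPM in adult cells. Mature oligodendrocyte markers summed to 719, 82.0 and 497 TPM in adult replicates 1, 2 and 3. Ependymal markers summed to 12.1 and 17.4 TPM in E15 cells, 461 and 327 TPM in P3 cells, and 206 to 282 TPM in adult cells. Most of the adult sum was Rarres2, at 218.7, 176.5 and 257.8 TPM. Of the 5 ependymal markers tested, 4 were lower and 1 higher in the adult against P3 (limma, same test as below). Mural cell markers summed to 10.3 and 7.58 TPM in E15 cells, 102 and 71.3 TPM in P3 cells, and 14.5 to 24.6 TPM in adult cells. Red blood cell markers summed to 5125 TPM in E15 replicate 1 and to at most 59.8 TPM in every other library, so that library stands apart. The 6 receptors called in the adult against E15 were also called without it. In bulk samples, fewer cells of a type and less RNA per cell cannot be told apart.

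The transcripts of 6 receptors were more abundant in the adult than at E15 and none were less abundant. Of the 9 receptors tested, Ntrk2, Fgfr3, Axl, Egfr, Fgfr2 and Fgfr1 rose, and Igf1r, Erbb2 and Erbb4 did not pass (limma on log2(TPM + 1), threshold 0.05 on p-values adjusted by Benjamini-Hochberg for the 15931 genes tested). Among all genes tested, 40.1% were called in the adult against E15, 15.4% higher and 24.7% lower. The median log2 change was 2.43 over the 9 receptors and -0.30 over all genes tested. Against E15, P3 cells had 4 receptors higher and none lower (Ntrk2, Egfr, Axl and Fgfr3), beside 6.63% of all genes called, 5.56% higher and 1.08% lower. Against P3, adult cells had 5 receptors higher and none lower (Fgfr3, Ntrk2, Fgfr2, Axl and Fgfr1), beside 22.2% of all genes called, 8.39% higher and 13.8% lower. At an unadjusted p under 0.05, Igf1r was lower at P3 than at E15 and no receptor was lower in the other comparisons. At P3 against E15 all 5 ependymal markers tested, 3 of 4 mural markers and 9 of 10 astrocyte markers were also higher, and their part in the receptor values was not tested. The comparisons share libraries, so their calls are not independent of each other. In the comparison of P3 with the mean of E15 and the adult, none of the 9 receptors passed in limma, also at an unadjusted p under 0.05, beside 2.89% of all genes called, 2.17% higher and 0.722% lower.

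**Figure D1:**
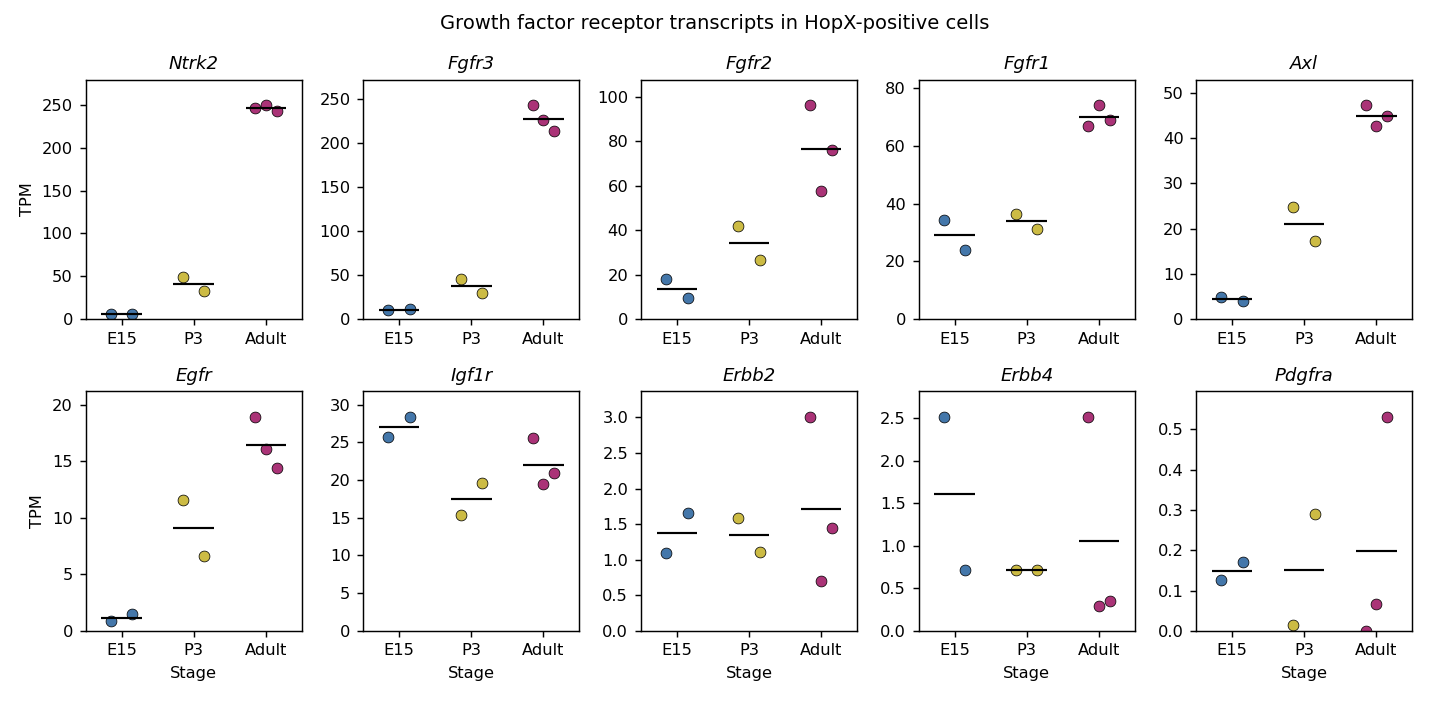
Level of each receptor in every library, in TPM on a linear axis that starts at 0 and has its own scale in each panel. Points are libraries (E15 n = 2, P3 n = 2, adult n = 3) and bars are stage means; Ntrk2 and Fgfr3 lie at 214 TPM or above in every adult library, while Erbb2, Erbb4 and Pdgfra stay at or below 3.01 TPM throughout.

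The order of the receptors by level differed between stages. At E15 the most abundant were Fgfr1 (mean 29.1 TPM) and Igf1r (27.0 TPM), whose ranges overlapped, followed by Fgfr2 (13.8 TPM) and Fgfr3 (10.5 TPM), which also overlapped. At P3 the means of Ntrk2 (40.9 TPM), Fgfr3 (37.2 TPM), Fgfr2 (34.2 TPM) and Fgfr1 (33.8 TPM) lay close together, and each overlapped with the next in the order. In the adult, Ntrk2 (246 TPM) and Fgfr3 (228 TPM) overlapped with each other and lay above all the others. Fgfr2 (76.6 TPM) and Fgfr1 (70.0 TPM) came next and overlapped, and Axl (44.9 TPM), Igf1r (22.0 TPM) and Egfr (16.4 TPM) followed without overlap. Summed over the 10 receptors, the level was 103 and 86.4 TPM in E15 cells, 227 and 165 TPM in P3 cells, and 749, 686 and 684 TPM in adult cells.

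The promoters of 4 of the 6 receptors that rose and of Igf1r, which did not pass, are shown. The 4 are those also called higher at P3 against E15. Fgfr2, which is not shown, rose as well, with no overlap between stages. Each window runs from 250 bases before to 50 bases after a gene's start, and the sequences are those of RefSeq on GRCm38.p6. The expression values were made on mm9 and no coordinate was carried over between the builds. Capitals mark the GC box GGGCGG on either strand, a motif bound by Sp factors. The motifs searched were picked after the values had been seen.
Ntrk2 (chr13:58806319-58806618, plus strand): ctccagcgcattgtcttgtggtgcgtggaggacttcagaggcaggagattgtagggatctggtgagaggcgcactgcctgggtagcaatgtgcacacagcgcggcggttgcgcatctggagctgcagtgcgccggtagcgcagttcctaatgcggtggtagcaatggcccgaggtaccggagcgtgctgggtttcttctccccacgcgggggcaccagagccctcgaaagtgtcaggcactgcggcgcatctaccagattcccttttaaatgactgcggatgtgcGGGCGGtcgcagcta
Fgfr3 (chr5:33721474-33721773, plus strand): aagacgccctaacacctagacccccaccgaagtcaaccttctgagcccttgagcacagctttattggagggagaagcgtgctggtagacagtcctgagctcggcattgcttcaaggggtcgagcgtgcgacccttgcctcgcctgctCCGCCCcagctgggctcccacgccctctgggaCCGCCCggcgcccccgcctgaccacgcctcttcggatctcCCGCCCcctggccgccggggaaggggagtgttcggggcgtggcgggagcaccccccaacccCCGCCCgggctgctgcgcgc
Axl (chr7:25788684-25788983, minus strand): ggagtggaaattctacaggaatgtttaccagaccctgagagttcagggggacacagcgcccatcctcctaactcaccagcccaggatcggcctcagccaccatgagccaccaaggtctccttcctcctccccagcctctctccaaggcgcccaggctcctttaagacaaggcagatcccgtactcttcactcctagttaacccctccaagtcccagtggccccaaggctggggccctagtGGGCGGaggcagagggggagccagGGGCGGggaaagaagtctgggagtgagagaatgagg
Egfr (chr11:16751953-16752252, plus strand): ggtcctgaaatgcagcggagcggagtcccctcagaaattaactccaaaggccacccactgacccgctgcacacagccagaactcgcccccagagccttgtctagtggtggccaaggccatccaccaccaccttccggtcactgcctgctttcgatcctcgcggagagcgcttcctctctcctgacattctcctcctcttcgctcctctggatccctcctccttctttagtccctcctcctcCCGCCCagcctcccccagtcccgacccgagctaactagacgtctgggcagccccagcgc
Igf1r (chr7:67952007-67952306, plus strand): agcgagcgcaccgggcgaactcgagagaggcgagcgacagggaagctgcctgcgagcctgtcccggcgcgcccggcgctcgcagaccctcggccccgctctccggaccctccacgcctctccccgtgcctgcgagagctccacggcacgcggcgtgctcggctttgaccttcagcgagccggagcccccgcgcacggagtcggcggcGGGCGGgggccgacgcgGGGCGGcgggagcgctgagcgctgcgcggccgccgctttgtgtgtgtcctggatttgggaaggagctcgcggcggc
The GC box occurred 1 time in the Ntrk2 window, 4 times in that of Fgfr3, 2 times in that of Axl, 1 time in that of Egfr and 2 times in that of Igf1r. It occurred in 35.7% of the 32851 promoter windows of the same length. Thus the window of a receptor that did not pass held it as well as those of receptors that rose, and the windows of Fgfr2, Erbb2, Erbb4 and Pdgfra did not hold these letters. The other motifs searched, on both strands, were TATAAA (in 13.6% of all windows), the E box CANNTG (72.3%), the SOX site AACAAAG (5.85%), the NFI site TTGGC (46.7%) and the NFI palindrome, which holds that site (0.0365%). The TATA letters, the SOX site and the NFI palindrome were in no window of the 9 receptors that have one. TTGGC was in those of Egfr and Fgfr2. The E box was in those of Fgfr2, Pdgfra, Ntrk2, Erbb2 and Fgfr3. CpG dinucleotides numbered 48 in the window of Igf1r, 26 in that of Fgfr3, 23 in Ntrk2, 21 in Erbb2, 17 in Erbb4, 15 in Egfr, 6 in Axl, 5 in Pdgfra and 4 in Fgfr2, beside a median of 7 over all windows. Fgfr3 has a second start in the table, which is not shown, and Fgfr1 had no entry.

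Ntrk2 encodes TrkB, the receptor of brain-derived neurotrophic factor, and had the largest change of the 9 receptors in the comparison of the adult with E15. Its level was 5.61 and 5.46 TPM in E15 cells, 49.4 and 32.5 TPM in P3 cells, and 246, 249 and 242 TPM in adult cells. The stages did not overlap, and the adult libraries lay within a few TPM of each other. Its place among all rows of the table moved with it, since 61.0% and 61.8% of rows had a lower value in the E15 libraries, against 83.8% and 88.3% at P3 and 97.3% in each adult library. On the log2(TPM + 1) scale, Ntrk2 was higher by 2.65 at P3 than at E15 (SE 0.23, limma, Benjamini-Hochberg adjusted p = 0.000597). It was higher by 2.59 in the adult than at P3 (SE 0.21, adjusted p = 0.000311). These calls held under all 20 alternatives tried, with log2 changes of 2.10 to 2.94 and of 2.29 to 2.88. The table gives a value per gene, so full-length and truncated TrkB are not separated. The sister gene Ntrk3, which encodes TrkC, the receptor of neurotrophin 3, went the other way. It was at 39.6 and 48.9 TPM in E15 cells, 14.9 and 22.5 TPM in P3 cells, and 15.7, 6.09 and 6.46 TPM in adult cells, and it fell by 2.23 on the log2 scale in the adult against E15 (SE 0.41, limma, Benjamini-Hochberg adjusted p = 0.00343). Astrocyte and microglia markers rose over the same stages by the summed levels above. Of 9 neuron markers tested, 1 rose and 7 fell in the adult against E15. None rose and 1 fell at P3 against E15, and 2 rose and 1 fell in the adult against P3. The part of these cells in the Ntrk2 values was not tested.

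The FGF receptors share ligands and a tyrosine kinase domain, and the most abundant of them was a different one at E15 and in the adult. Fgfr3 was at 10.1 and 10.98 TPM in E15 cells, 45.3 and 29.1 TPM in P3 cells, and 243, 226 and 214 TPM in adult cells. All adult libraries lay above both P3 libraries, and these above both E15 libraries. Fgfr3 was higher by a log2 change of 1.70 at P3 than at E15 (SE 0.24, limma, Benjamini-Hochberg adjusted p = 0.0053) and by 2.61 in the adult than at P3 (SE 0.22, adjusted p = 0.000328), and both calls held under all 20 alternatives. Fgfr2 was at 18.2 and 9.38 TPM in E15 cells, 41.9 and 26.4 TPM in P3 cells, and 96.2, 57.8 and 75.9 TPM in adult cells. The stages did not overlap. Fgfr2 was higher by 2.43 in the adult than at E15 (SE 0.35, limma, Benjamini-Hochberg adjusted p = 0.000996). It passed narrowly in the adult against P3 (log2 change 1.15, SE 0.35, adjusted p = 0.0474), a call that held under 12 of the 20 alternatives, and did not pass at P3 against E15 (1.28, SE 0.38, adjusted p = 0.0889).

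Fgfr1 was at 34.2 and 24.1 TPM in E15 cells, 36.4 and 31.2 TPM in P3 cells, and 66.9, 74.0 and 69.0 TPM in adult cells. The E15 and P3 libraries overlapped, and all adult libraries lay above them. It rose in the adult by a log2 change of 1.03 against P3 (SE 0.21, limma, Benjamini-Hochberg adjusted p = 0.0114) and by 1.25 against E15 (SE 0.21, adjusted p = 0.00239). At P3 against E15 the change was 0.22, with a 95% confidence interval of -0.31 to 0.76, and it was -0.02 without E15 replicate 2. Within each library, which removes any scaling between libraries, the ratio of Fgfr3 to Fgfr1 was 0.295 and 0.455 in E15 cells, 1.24 and 0.932 in P3 cells, and 3.63, 3.06 and 3.10 in adult cells. Fgfr1 made up 54.7% and 54.2% of the summed TPM of Fgfr1, Fgfr2 and Fgfr3 in E15 cells, 29.4% and 36.0% in P3 cells, and 16.5%, 20.7% and 19.2% in adult cells. Fgfr3 made up 16.1% and 24.7% in E15 cells, 36.6% and 33.6% in P3 cells, and 59.8%, 63.2% and 59.6% in adult cells. The share of Fgfr2 was 29.1% and 21.1%, 33.9% and 30.4%, and 23.7%, 16.1% and 21.2% in the same libraries. The shares of Fgfr1 and Fgfr3 did not overlap between stages. Those of Fgfr2 were highest at P3, and E15 and the adult overlapped. Fgfr4 was at or below 1.24 TPM in every library.

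**Figure D2:**
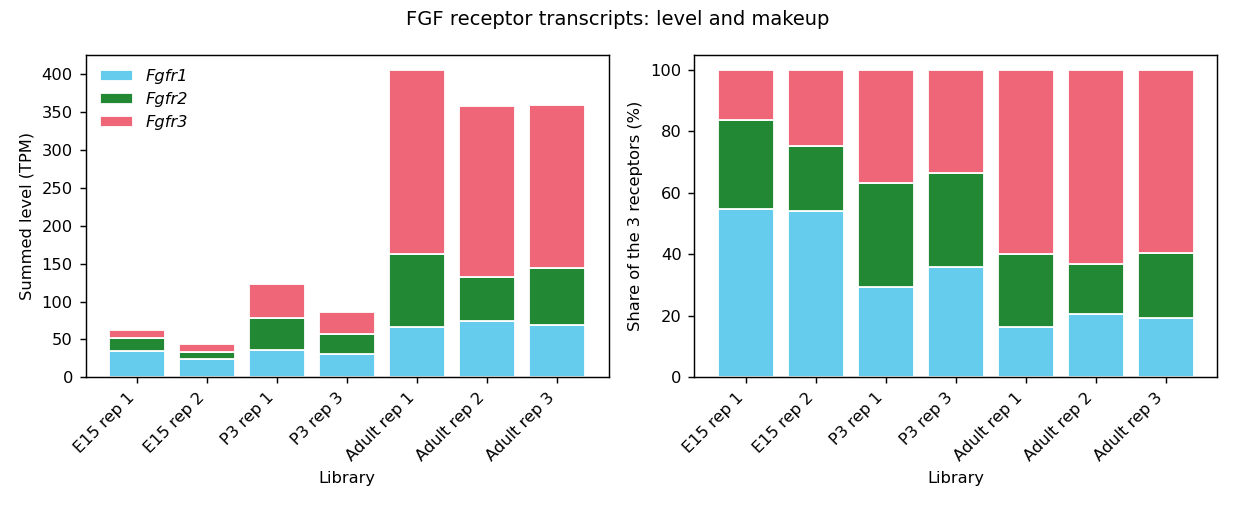
Transcripts of Fgfr1, Fgfr2 and Fgfr3 in each library, as stacked TPM (left) and as the share of their sum in percent (right). The summed level is 62.4 and 44.5 TPM in E15 cells, 124 and 86.8 TPM in P3 cells, and 406, 358 and 359 TPM in adult cells, and the Fgfr3 part widens while the Fgfr1 part narrows.

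The ErbB family had 1 member that changed with stage and 2 that stayed low. Egfr, the receptor of EGF, TGF alpha and HB-EGF, was at 0.854 and 1.45 TPM in E15 cells, 11.5 and 6.65 TPM in P3 cells, and 18.9, 16.1 and 14.4 TPM in adult cells. The 3 stages did not overlap. Egfr was higher by a log2 change of 2.20 at P3 than at E15 (SE 0.38, limma, Benjamini-Hochberg adjusted p = 0.013) and by 3.02 in the adult than at E15 (SE 0.35, adjusted p = 0.000333). The change from P3 to the adult did not pass (0.83, 95% confidence interval 0.03 to 1.62, adjusted p = 0.128). Erbb2, the partner receptor that binds no ligand of its own, was at 1.09 and 1.65 TPM in E15 cells, 1.59 and 1.10 TPM in P3 cells, and 3.01, 0.705 and 1.44 TPM in adult cells. Erbb4, the neuregulin receptor of inhibitory neurons and other brain cells, was at 2.51 and 0.711 TPM in E15 cells, 0.713 and 0.719 TPM in P3 cells, and 2.51, 0.291 and 0.346 TPM in adult cells. For both genes the stages overlapped. In the adult against E15 the 95% confidence interval of the log2 change was -0.88 to 1.116 for Erbb2 and -1.66 to 0.81 for Erbb4. The highest adult value of both was in replicate 1, the library with the highest summed mature oligodendrocyte markers (719 TPM). Erbb4 did not follow these sums further. It was at 0.346 TPM in adult replicate 3 (sum 497 TPM) and 0.291 TPM in replicate 2 (82.0 TPM), and at 2.51 TPM in E15 replicate 1 (24.4 TPM). Inhibitory neuron markers summed to 36.1 and 31.3 TPM in E15 cells, 16.0 and 24.7 TPM in P3 cells, and 5.68 to 6.82 TPM in adult cells. The part of either cell type in the values was not tested. Erbb3 was at or below 0.486 TPM in every library.

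Axl belongs with Mertk and Tyro3 to the TAM receptors, which take up dying cells and debris after binding Gas6 on their surface. Axl was at 4.85 and 4.11 TPM in E15 cells, 24.8 and 17.2 TPM in P3 cells, and 47.2, 42.7 and 44.9 TPM in adult cells, with no overlap between stages. It was higher by a log2 change of 1.99 at P3 than at E15 (SE 0.27, limma, Benjamini-Hochberg adjusted p = 0.00464) and by 1.08 in the adult than at P3 (SE 0.25, adjusted p = 0.0178). Mertk was at 0.932 and 2.26 TPM in E15 cells, 9.67 and 4.03 TPM in P3 cells, and 158, 116 and 123 TPM in adult cells. It was higher by 4.17 in the adult than at P3 (SE 0.38, limma, Benjamini-Hochberg adjusted p = 0.000446), a call that held under all 20 alternatives. Tyro3 was at 7.70 and 4.25 TPM in E15 cells, 2.32 and 3.20 TPM in P3 cells, and 2.66, 1.79 and 0.427 TPM in adult cells, and its lower level in the adult than at E15 was called in only 6 of 19 alternatives (limma, Benjamini-Hochberg adjusted p = 0.0407, over the alternatives 0.024 to 0.245). Of 11 microglia markers tested, 9 rose in the adult against E15, and Csf1r, a receptor tyrosine kinase of microglia, was at 0.262 and 0.698 TPM at E15 and 5.25, 6.00 and 8.42 TPM in the adult. All 10 astrocyte markers tested also rose in that comparison. The part of microglia and of astrocytes in the Axl and Mertk values was not tested.

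Igf1r, the receptor of the insulin-like growth factors, was not called in any comparison. It was at 25.7 and 28.3 TPM in E15 cells, 15.4 and 19.6 TPM in P3 cells, and 25.6, 19.4 and 21.0 TPM in adult cells. Both P3 libraries lay below both E15 libraries, and the adult libraries overlapped with those of P3. The log2 change was -0.61 at P3 against E15 (95% confidence interval -1.21 to -0.003, limma, Benjamini-Hochberg adjusted p = 0.209) and -0.29 in the adult against E15 (-0.84 to 0.26, adjusted p = 0.366). With median-of-ratios scaling the change in the adult against E15 was 0.008. Because Ntrk2 rose, the ratio of Ntrk2 to Igf1r within a library was 0.219 and 0.193 in E15 cells, 3.21 and 1.66 in P3 cells, and 9.62, 12.8 and 11.6 in adult cells.

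Pdgfra was at 0.126 and 0.170 TPM in E15 cells, 0.0148 and 0.289 TPM in P3 cells, and 0, 0.0653 and 0.531 TPM in adult cells. It passed the filter of 1 TPM in 2 libraries nowhere and was not tested. The 10 other markers of oligodendrocyte progenitors summed to 6.31 and 5.83 TPM in E15 cells, 44.8 and 29.5 TPM in P3 cells, and 19.2, 20.9 and 18.7 TPM in adult cells. Of the 4 that were tested, 2 rose at P3 against E15. Most of the P3 sum was Olig1, at 32.1 and 16.1 TPM, and Olig2, at 8.68 and 6.70 TPM, which progenitors outside this lineage also express. Pcdh15 was at 4.07 and 4.02 TPM in E15 cells, 2.09 and 4.74 TPM in P3 cells and at most 0.238 TPM in adult cells. Sox10, a factor of the whole oligodendrocyte lineage, was at 0 in both P3 libraries and at most 0.884 TPM elsewhere. Pdgfrb, the sister receptor known from mural cells, was at 0.751 and 1.16 TPM in E15 cells, 4.56 and 2.46 TPM in P3 cells, and 8.57, 11.6 and 7.14 TPM in adult cells. It rose in the adult against E15 (log2 change 2.35, SE 0.38, limma, Benjamini-Hochberg adjusted p = 0.00184). Pdgfrb is itself a mural marker, and none of the other 3 tested rose in that comparison. Rgs5, another of them, was at 5.58, 12.5 and 11.5 TPM in adult cells and 9.02 and 5.42 TPM in E15 cells, and the part of mural cells in the Pdgfrb values was not tested.

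**Figure D3:**
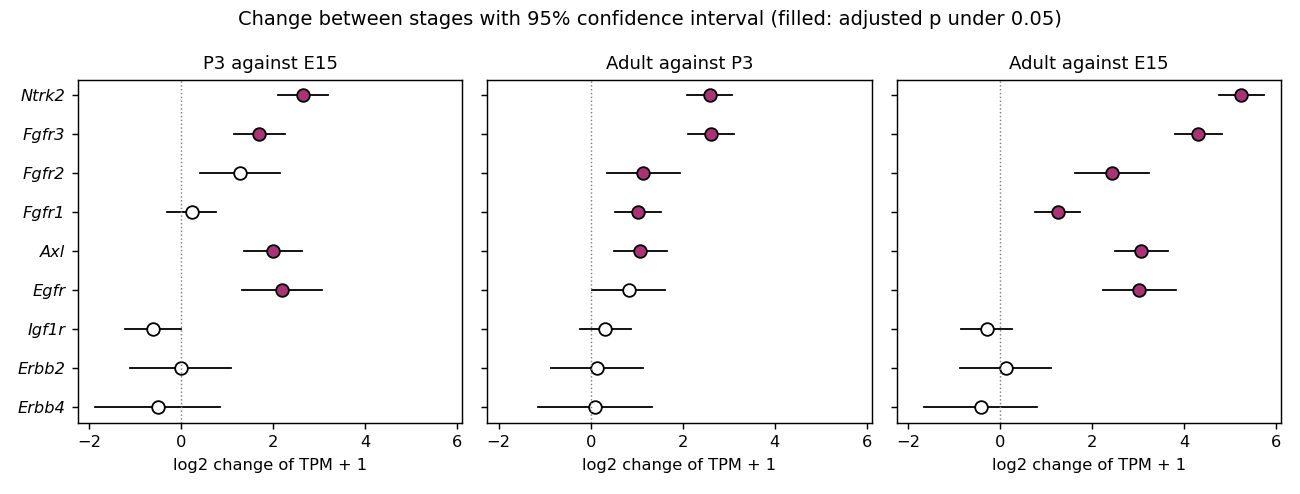
Log2 change of TPM + 1 with its 95% confidence interval for the 9 receptors tested, in limma fits over all 15931 genes. Filled points passed an adjusted p of 0.05; Ntrk2 and Fgfr3 are filled in all 3 comparisons, with changes of 5.24 and 4.31 in the adult against E15, and Igf1r, Erbb2 and Erbb4 are open in all of them.

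For the 6 receptors that rose, the P3 libraries differed from each other in the direction of the stages. Replicate 3 was lower than replicate 1 for Ntrk2, Fgfr1, Fgfr2, Fgfr3, Egfr and Axl, by log2 differences of -0.59, -0.21, -0.65, -0.62, -0.71 and -0.50, and higher for Igf1r, by 0.33. For Erbb2, Erbb4 and Pdgfra, which were low at every stage, the differences were -0.30, 0.01 and 0.35. How many of all genes differ in this way was not counted, so it cannot be called particular to the receptors. Replicate 3 had the lower astrocyte sum and the higher neuron sum of the P3 libraries. Its sums were also lower for radial glia (16160 against 24840 TPM), microglia, ependymal, mural, endothelial, red blood cell and both oligodendrocyte lists. They were higher for inhibitory neuron and for fibroblast and leptomeningeal markers. The part of these cells in the differences was not tested. Without P3 replicate 1 only Ntrk2 and Fgfr3 were called at P3 against E15, and without P3 replicate 3 only these 2 were called in the adult against P3. The same 2 were called in the adult against P3 when adult replicates 1 and 3, which had the higher oligodendrocyte sums, were left out together. The Egfr call at P3 against E15 was also lost without E15 replicate 1 or 2 (over all alternatives, limma, Benjamini-Hochberg adjusted p = 0.00735 to 0.141), and that of Fgfr2 in the adult against P3 also on leaving out P3 replicate 1 or adult replicate 1 or 3 (0.0145 to 0.303). All 6 calls in the adult against E15 held under all 20 alternatives.

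Of 33 ligand genes of these receptors and of the insulin receptor in the table, 18 passed the filter. In the adult against E15, 5 ligand genes rose (Fgf1, Gas6, Hbegf, Pdgfa and Tgfa) and 3 fell (Nrg1, Nrg4 and Ntf3), and 10 did not pass. The shares called, 27.8% higher and 16.7% lower, stand beside 15.4% and 24.7% of all genes tested. Without E15 replicate 1 the counts were 3 and 1, and without E15 replicate 2 they were 4 and 1. The list median was 0.28, against -0.30 over all genes tested. Fgf1, which binds every FGF receptor, was at 0.0594 and 0.0314 TPM in E15 cells, 6.23 and 4.57 TPM in P3 cells, and 22.8, 66.8 and 18.0 TPM in adult cells. The stages did not overlap, and adult replicate 2 lay well above the other adult libraries. Its log2 change was 4.90 in the adult against E15 (SE 0.53, limma, Benjamini-Hochberg adjusted p = 0.000255). Fgf2, Fgf9 and Fgf18, which averaged 1.82, 2.56 and 1.15 TPM over the libraries, and Fgf15, which averaged 1.05 TPM, did not pass in any comparison of 2 stages.

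Of the EGF receptor ligands, Hbegf was at 2.76 and 1.38 TPM in E15 cells, 17.3 and 7.79 TPM in P3 cells, and 14.4, 20.3 and 18.7 TPM in adult cells. P3 and adult libraries overlapped, and all lay above those of E15, with a log2 change of 2.64 in the adult against E15 (SE 0.40, limma, Benjamini-Hochberg adjusted p = 0.00139). Tgfa was at 2.43 and 1.90 TPM in E15 cells, 5.49 and 3.13 TPM in P3 cells, and 5.90, 8.92 and 4.22 TPM in adult cells. Its call in the adult against E15 was at the threshold (log2 change 1.17, SE 0.40, adjusted p = 0.0483) and was lost on leaving out either E15 library, either P3 library, or adult replicate 1 or 2 (over 19 alternatives, limma, Benjamini-Hochberg adjusted p = 0.027 to 0.216). Egf and Btc, which averaged 2.54 and 1.31 TPM, did not pass. Gas6, the ligand of Axl, was at 0 in each E15 library, at 6.42 and 1.72 TPM in P3 cells and at 25.9, 25.8 and 22.4 TPM in adult cells. It was called in the adult against P3 (log2 change 2.51, SE 0.44, limma, Benjamini-Hochberg adjusted p = 0.00594) under all 20 alternatives.

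Of the neuregulins, ligands of Erbb4, Nrg1 and Nrg4 fell in the adult against E15, Nrg3 did not pass (log2 change -0.96, limma, Benjamini-Hochberg adjusted p = 0.0597) and Nrg2 was too low to test. Nrg1 was at 54.8 and 47.0 TPM in E15 cells, 15.4 and 28.3 TPM in P3 cells, and 0.711, 1.34 and 1.55 TPM in adult cells, with no overlap between stages. It fell by 3.34 on the log2 scale in the adult against P3 (SE 0.35, limma, Benjamini-Hochberg adjusted p = 0.00077) and by 4.57 against E15 (SE 0.35, adjusted p = 5.31e-05), and both calls held under all 20 alternatives. At P3 the higher Nrg1 value was that of replicate 3, the library with the higher neuron sum. In the adult the lowest Nrg1 value, 0.711 TPM, was that of replicate 1, which had the highest adult neuron sum. That sum, 345 TPM, was also above the 205 TPM of P3 replicate 1, where Nrg1 was at 15.4 TPM. The part of neurons in the Nrg1 values was not tested. Nrg4 was at 5.18 and 5.35 TPM in E15 cells, 2.86 and 3.05 TPM in P3 cells, and 2.19, 1.70 and 1.93 TPM in adult cells. Among TrkB ligands, Ntf3, which encodes neurotrophin 3 and binds TrkC more strongly than TrkB, was at 7.40 and 10.4 TPM in E15 cells, 1.98 and 3.69 TPM in P3 cells, and 3.70, 0 and 2.13 TPM in adult cells. The calls of Nrg4 and Ntf3 in the adult against E15 were each lost without E15 replicate 1 or 2, and also without adult replicate 2 for Nrg4 and without P3 replicate 1 or 3 for Ntf3 (limma, Benjamini-Hochberg adjusted p = 0.0268 and 0.0355, over the alternatives 0.00757 to 0.14 and 0.00468 to 0.178). Bdnf was at 1.15 and 0.591 TPM in E15 cells, 3.32 and 3.71 TPM in P3 cells, and 12.3, 2.82 and 1.85 TPM in adult cells and did not pass. Pdgfa, a ligand of PDGF receptor alpha, was at 0.941 and 1.86 TPM in E15 cells, 7.29 and 4.83 TPM in P3 cells, and 9.86, 4.40 and 6.31 TPM in adult cells. Its call in the adult against E15 (log2 change 1.68, SE 0.42, adjusted p = 0.0135) was lost without E15 replicate 1, and when adult replicates 1 and 3 were left out together (over the alternatives, limma, Benjamini-Hochberg adjusted p = 0.0077 to 0.107). Pdgfc and Igf1, which averaged 6.29 and 1.46 TPM, did not pass.

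**Figure D4:**
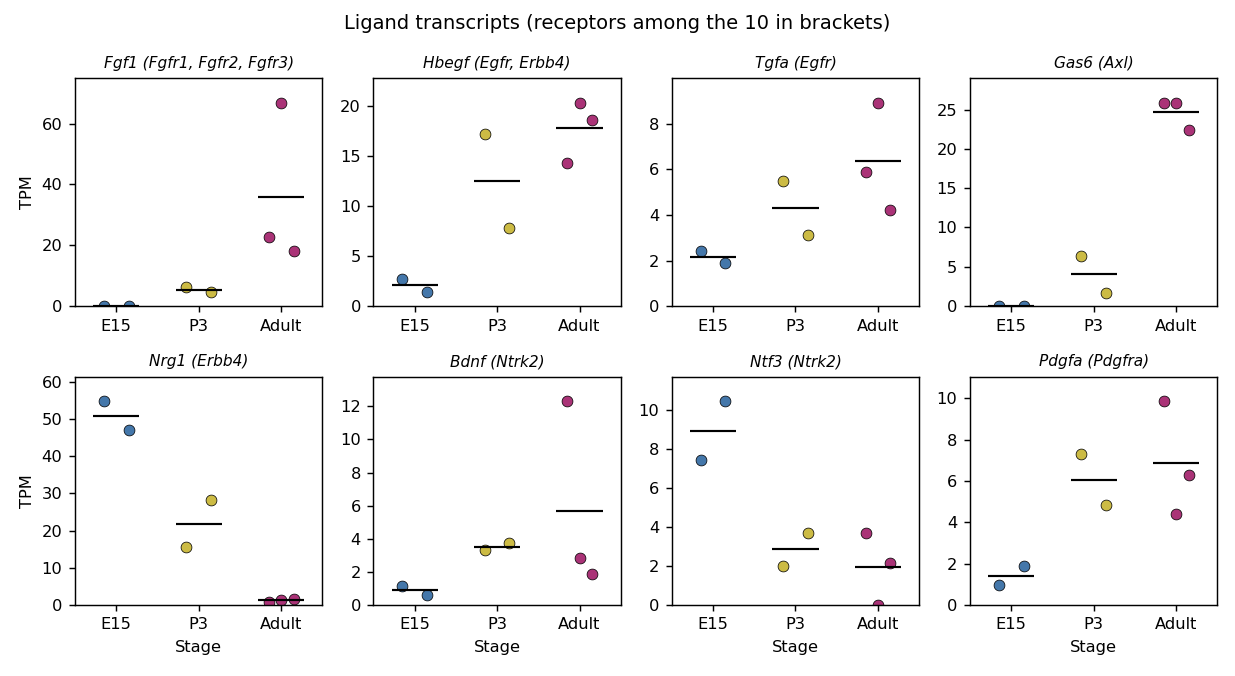
Level of 8 ligand genes in every library, in TPM on linear axes that start at 0, with their receptors among the 10 in brackets. Points are libraries and bars are stage means; Fgf1 and Gas6 are at or near 0 at E15 and at 18.0 TPM or more in the adult, while Nrg1 is at 47.0 TPM or more at E15 and at 1.55 TPM or less in the adult.

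In the adult against E15, other receptor tyrosine kinases were called about as often as genes in general. Of 48 such genes, 30 were tested, and in the adult against E15 3 rose (Mertk, Csf1r and Pdgfrb), 8 fell and 19 did not pass, with a median of -0.32. These are 10% higher and 26.7% lower, beside 15.4% and 24.7% of all genes tested. In the adult against P3, 1 rose and 3 fell, 3.33% and 10%, beside 8.39% and 13.8% of all genes tested. The largest decreases were in Eph receptors of axon guidance. Epha3 was at 26.1 and 42.9 TPM in E15 cells, 2.48 and 16.5 TPM in P3 cells, and 0.288, 0.0775 and 0.151 TPM in adult cells (log2 change in the adult against E15 -4.88, SE 0.63, limma, Benjamini-Hochberg adjusted p = 0.000597). Epha4 fell by 2.98 (SE 0.44) and Ephb2 fell by 2.94 (SE 0.33), and these 3 calls held under all alternatives in which the genes were tested. At P3 against E15 none of the 30 passed in limma, beside 6.63% of all genes called. There, 3 were higher and 6 lower at an unadjusted p under 0.05. Without P3 replicate 3, 1 was called higher and 2 lower, and a single call appeared with a mean minimum of 5 TPM, without the trend and with the 2 stages fitted alone. The difference between the 2 receptor lists was not tested.

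Adaptors and kinases of the Ras-MAP kinase and PI3 kinase cascades were called at shares near those of all genes in the adult against E15. Of 34 tested, 5 rose and 9 fell in the adult against E15, with a median of -0.30, the same as over all genes tested. These are 14.7% higher and 26.5% lower, beside 15.4% and 24.7% of all genes. Without E15 replicate 1 or 2 these counts were 3 and 4 or 3 and 3. Pik3r1, a regulatory subunit of PI3 kinase, was at 8.19 and 12.8 TPM in E15 cells, 11.98 and 15.4 TPM in P3 cells, and 56.8, 60.9 and 33.2 TPM in adult cells (log2 change in the adult against E15 2.14, SE 0.33, limma, Benjamini-Hochberg adjusted p = 0.00155). Its relative Pik3r3 was at 98.2 and 115 TPM in E15 cells, 23.1 and 61.6 TPM in P3 cells, and 13.0, 12.9 and 6.76 TPM in adult cells, and fell by 3.22 (SE 0.43). Rras, a Ras-related GTPase, rose by 2.37 (SE 0.45). Irs1, an adaptor of the insulin and IGF1 receptors, fell to 0.689 to 1.06 TPM in the adult, against 6.24 and 6.81 TPM at E15. Irs2 went the other way, with means of 1.69 TPM in E15 cells, 1.30 TPM in P3 cells and 4.76 TPM in adult cells.

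Of 23 feedback inhibitors and response genes of receptor signaling tested, 9 rose and 5 fell in the adult against E15, with a median of 0.58. These are 39.1% higher and 21.7% lower, beside 15.4% and 24.7% of all genes tested, and without E15 replicate 1 or 2 the counts were 6 and 1. Lrig1, which lowers EGF receptor levels, was at 20.0 and 12.4 TPM in E15 cells, 64.9 and 52.2 TPM in P3 cells, and 81.1, 92.2 and 64.9 TPM in adult cells (log2 change in the adult against E15 2.25, SE 0.26, limma, Benjamini-Hochberg adjusted p = 0.000358). Spry4, an inhibitor of Ras-MAP kinase signaling that FGF signaling induces, rose by 1.91 (SE 0.34), and Fgfrl1, an FGF receptor without a kinase domain, rose by 1.97 (SE 0.34). Dusp4, a MAP kinase phosphatase, was at 7.74 and 9.27 TPM in E15 cells, 0.142 and 2.08 TPM in P3 cells, and 0.125, 0.253 and 0 TPM in adult cells, and fell by 3.08 (SE 0.46). Etv1, a transcription factor of the FGF response, was at 26.5 and 20.2 TPM in E15 cells, 25.5 and 19.3 TPM in P3 cells, and 12.03, 5.52 and 8.91 TPM in adult cells. Etv4 and Etv5 of the same list went the other way, with means of 7.75 and 31.0 TPM in adult cells against 1.51 and 15.7 TPM in E15 cells.

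Among 19 binding proteins and co-receptors tested, 6 rose, 6 fell and 7 did not pass in the adult against E15, with a median of 0.18. This is 31.6% in each direction, beside 15.4% of all genes higher and 24.7% lower. Sdc4, a heparan sulfate proteoglycan that binds FGFs at the cell surface, was at 4.03 and 4.63 TPM in E15 cells, 49.5 and 36.1 TPM in P3 cells, and 347, 342 and 326 TPM in adult cells. It was higher by 3.03 at P3 than at E15 (SE 0.22, limma, Benjamini-Hochberg adjusted p = 0.000253) and by 2.97 in the adult than at P3 (SE 0.20, adjusted p = 0.000146), and held under all 20 alternatives. Its relative Sdc2 rose by 2.37 in the adult against E15 (SE 0.25), and Sorcs2, a sortilin family receptor of neurotrophin precursors, rose by 3.38 (SE 0.34). Cd44, a hyaluronan receptor that can also carry heparan sulfate, rose by 2.23 (SE 0.39). Flrt3, a membrane protein that binds FGF receptors, was at 60.4 and 48.7 TPM in E15 cells, 11.1 and 33.0 TPM in P3 cells, and 4.75, 1.18 and 7.22 TPM in adult cells, and fell by 3.56 (SE 0.61).

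Genes with the most similar pattern were found by Pearson's r of log2(TPM + 1) over the 7 libraries, among 9560 genes with a mean of at least 5 TPM. With so few libraries in 3 stages such values are high for many genes, and 694 genes reached an r of 0.95 with Ntrk2, 650 with Fgfr3, 671 with Axl, 555 with Egfr, 327 with Fgfr2 and 241 with Fgfr1. The closest were Gpr37l1, Sdc4 and Eps8l3 to Ntrk2 (0.9996, 0.9994 and 0.999) and Foxo1, Suclg1 and Atp6v0e to Fgfr3 (0.9998, 0.9994 and 0.9992). The closest to Axl were Hspa2, Gja1 and Cmtm5 (0.9996, 0.9993 and 0.9993), and to Egfr they were Tmem106b, Ssr4 and Nr3c1 (0.9987, 0.9982 and 0.9976). For Fgfr2 they were Tm7sf3, Scamp1 and Hacd4 (0.995, 0.9917 and 0.9914), and for Fgfr1 Caskin1, Pex16 and Cbx7 (0.9972, 0.9969 and 0.9964). Fewer genes reached 0.95 with the receptors that were not called, 15 with Igf1r, 1 each with Erbb2 and Erbb4 and 0 with Pdgfra, which was not tested. These counts depend on the same change between stages as the calls and are no separate result. Those closest to Igf1r were Tmem69, Syp and Hip1r (0.9828, 0.9707 and 0.9706). For Erbb2 and Erbb4 the closest genes were Wdr13, Gopc and Btbd2 (0.9519, 0.9389 and 0.938) and Asxl2, Tmem231 and Rpgrip1l (0.9547, 0.9434 and 0.9341), and Pdgfra was too low for such a measure to be read.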

How the data were processed

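RNA was measured in 7 libraries of sorted HopX-positive mouse brain cells. RNA came from a column kit, per the labels' protocols. The submitters' processing notes name bcl2fastq, Bowtie and the build mm9, and the quantifier and annotation were not stated. Expression was deposited as TPM, 1 column for each library, summing to between 998450 and 999193. TPM keeps no depth, so no count model was run.

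Groups are the labelled stages. The test used log2(TPM + 1). The 15931 genes that reached 1 TPM in 2 or more libraries entered 1 limma fit (version 3.58.1, R 4.3.3) of all 7 libraries on stage alone, with eBayes and a mean-variance trend (4 residual degrees of freedom, prior 4.27) and Benjamini-Hochberg adjustment over all genes tested. Members were read from that fit. It was tested on simulated data. The receptors and gene lists were chosen with earlier results of these data known. Named were all receptors, their ligands with a mean of at least 1 TPM, and in other lists the up to 4 genes with the largest change past the threshold in the adult against E15 and up to 2 in each step. Erbb3, Fgfr4, Ntrk3, Tyro3, Csf1r, Pdgfrb, Sox10, Pcdh15, Olig1, Olig2, Rgs5, Pax6 and Nes were chosen after their values were seen. So were Sox2, Prom1, Snap25, Rarres2, Etv4, Etv5 and Irs2. The alternatives were pseudocounts of 0.1 and 5, no filter, a mean minimum of 5 TPM, quantile normalization, median-of-ratios scaling, leaving out the 10 most abundant genes, no trend, robust estimation, a replicate block, the compared stages alone, summing rows of a symbol, leaving out each library and, added after seeing the data, leaving out adult replicates 1 and 3 together. Where 1 library of a stage was left, it was assumed to vary like the others.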

Additional observations from a re-analysis of the deposited data

How the results depend on the processing

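The number of receptors called kept within 1.5 times its value in 76 of 79 settings over the 4 comparisons, and no count rose. At P3 against E15 it was 2 to 4 with 1 library left out, and in the adult against P3 2 to 5, or 2 with adult replicates 1 and 3 left out together. It was 6 to 6 in the adult against E15 and 0 to 0 for P3 against the mean of E15 and the adult. Over all genes, the calls with 1 library left out numbered 267 to 1126 at P3 against E15, 1144 to 3322 in the adult against P3, 3620 to 6149 in the adult against E15, and 35 to 426 for P3 against the mean of the others, beside 1057, 3530, 6387 and 460 as reported. Without adult replicates 1 and 3 the adult against P3 gave 2288 and P3 against the mean 288, and P3 against the mean gave 259 without the trend. With the replicate block, 616 genes were called at P3 against E15 and 157 for P3 against the mean, and it changed no call of the receptors themselves. It ended other calls in the adult against E15 in each pathway list, those of Nrg4 (limma, adjusted p = 0.0766, over the alternatives 0.00757 to 0.14) and Tyro3 (0.101, over the alternatives 0.024 to 0.245) among them, and left 9 signal transducers called (4 higher, 5 lower) in place of 14 (5 and 9). The labels share replicate numbers between stages, and deviations of libraries with the same number from their stage means correlated by -0.023 to 0.021. With 2 libraries each, the deviations within E15 and within P3 mirror each other, so few of these values are independent. Whether the numbers pair the samples cannot be decided from them. Scaling moved the split of all calls: in the adult against E15, 38.5% of called genes were higher as reported, against 53.2% with median-of-ratios scaling, and in the adult against P3 37.9% against 48.2%. The median of all genes in the adult against E15 was -0.299 as reported and -0.041 with that scaling, and the 6 receptors that rose are above it either way. Values that changed sign belonged to genes that did not pass. Erbb2 at P3 against E15 was 0.088, 0.044 and 0.025 with median-of-ratios scaling, quantile normalization and the 10 most abundant genes left out, and -0.183 to 0.158 with 1 library left out (0.158 without E15 replicate 2, 0.137 without P3 replicate 3). In the adult against P3 it was -0.194 to 0.422 with 1 library left out, -0.019 without P3 replicate 3, -0.194 without adult replicate 1 and -0.454 without adult replicates 1 and 3, and in the adult against E15 -0.206 to 0.41, with -0.052 without E15 replicate 1, -0.206 without adult replicate 1 and -0.466 without adult replicates 1 and 3. Fgfr1 at P3 against E15 was -0.018 to 0.468, lowest without E15 replicate 2, Erbb4 in the adult against P3 was -0.084 with a pseudocount of 0.1, and Igf1r in the adult against E15 was 0.008 with median-of-ratios scaling. The cause was not tested. Depth is unknown, so how far it limits the low values of Erbb2, Erbb4 and Pdgfra cannot be given.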
